A study of Mus musculus with 2 samples.

Results

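Guidance cues are ligands that attract or repel migrating cells, growing axons and sprouting vessels. The genes described here are the mouse Eph receptors and their ephrin ligands, the semaphorins and their plexin receptors, the Slits and their Robo receptors, and the netrins Ntn1 and Ntn4 with the receptors Dcc, Neo1 and Unc5a to Unc5d. They were picked by a rule on gene symbols that uses no measured value. Earlier results of these data were already known when members, pairs and lists were chosen. This gave 66 members of the 21474 protein-coding genes in the tables: 14 Eph receptors, 8 ephrins, 20 semaphorins, 9 plexins, 3 Slits, 4 Robos, 2 netrins and 6 netrin receptors.

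Eph receptors are receptor tyrosine kinases whose ligands sit on the surface of the neighbouring cell, so that both cells can receive a signal. Semaphorins, some secreted and some membrane-bound, act through plexins, the secreted class 3 members mostly with a neuropilin as co-receptor. Slits are secreted and bind Robos, and netrins are laminin-related proteins that act through Dcc, Neo1 and the Unc5 receptors. In the mouse gut, ephrin-B1 with EphB2 and EphB3 is known for keeping epithelial cells in place between crypt and villus, netrin with Dcc for drawing neural crest cells inward, and semaphorin 3A for timing the entry of sacral neural crest into the hindgut.

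RNA longer than 200 nt was sequenced as total RNA from whole intestine of healthy B6NCrl mouse embryos at embryonic day 16.5, with male and female embryos pooled and no allele or treatment named. There are 2 libraries, replicates 1 and 2 of a single group, each made from 10 ng of RNA. Both pools carry the same donor identifier but are listed as separate biosamples. Replicate 2 came from 41 embryos, while the labels of replicate 1 state no number. Replicates 1 and 2 held 42040766 and 41480301 expected counts, which are estimated reads per gene. With a single group there is no control and no test between conditions, and the smallest exact two-sided sign-flip p that 2 libraries allow is 0.5. Values are therefore given for both libraries or as mean ± SD (n = 2), in TPM, a measure of level corrected for transcript length. In whole tissue, fewer cells of a type and less RNA per cell cannot be told apart.

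The markers of intestine were present. All 6 epithelial markers had a TPM of at least 1 in both libraries, with summed levels of 3630 and 3661 TPM in replicates 1 and 2. The same held for all 6 smooth muscle markers (3676 and 3550 TPM), all 6 mesenchymal markers (4043 and 4169 TPM), all 6 endothelial markers (242 and 246 TPM), all 6 enteric neuron markers (216 and 191 TPM), all 6 enteric glia markers (166 and 162 TPM) and all 4 mesothelial markers (89.8 and 100.03 TPM). All 4 pancreas markers (2426 and 3403 TPM) and all 4 liver markers (427 and 244 TPM) were also detected. Of 4 skeletal muscle markers, 2 were detected. The pancreatic list had a median 1.43-fold higher in replicate 2 than in replicate 1, and the liver list a median 2.28-fold lower.

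Most guidance genes were expressed, and few were abundant. Detection here means that neither library falls under 1 TPM, which held for 50 of the 66 members (75.8%), against 62% of all protein-coding genes. A level of at least 10 TPM in both libraries was reached by 15 members (22.7%), against 38.4% of all protein-coding genes. The median member had 5.21 TPM and the median protein-coding gene 4.47 TPM. Among detected genes the medians were 6.68 TPM for members and 17.1 TPM for protein-coding genes. All members together took 600.2 TPM in replicate 1 and 640.3 TPM in replicate 2, or 0.0600% and 0.0640% of all TPM. The 3 most abundant members, Plxnb2, Efna1 and Sema4a, held 30.2% and 31.5% of that sum in replicates 1 and 2, and the 10 most abundant held 57.4% and 58.8%. Ordered by mean level, 10 of the 65 steps from one member to the next exceeded the summed SD of the pair, so most neighbours in the order did not differ beyond their spread.

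**Figure D1:**
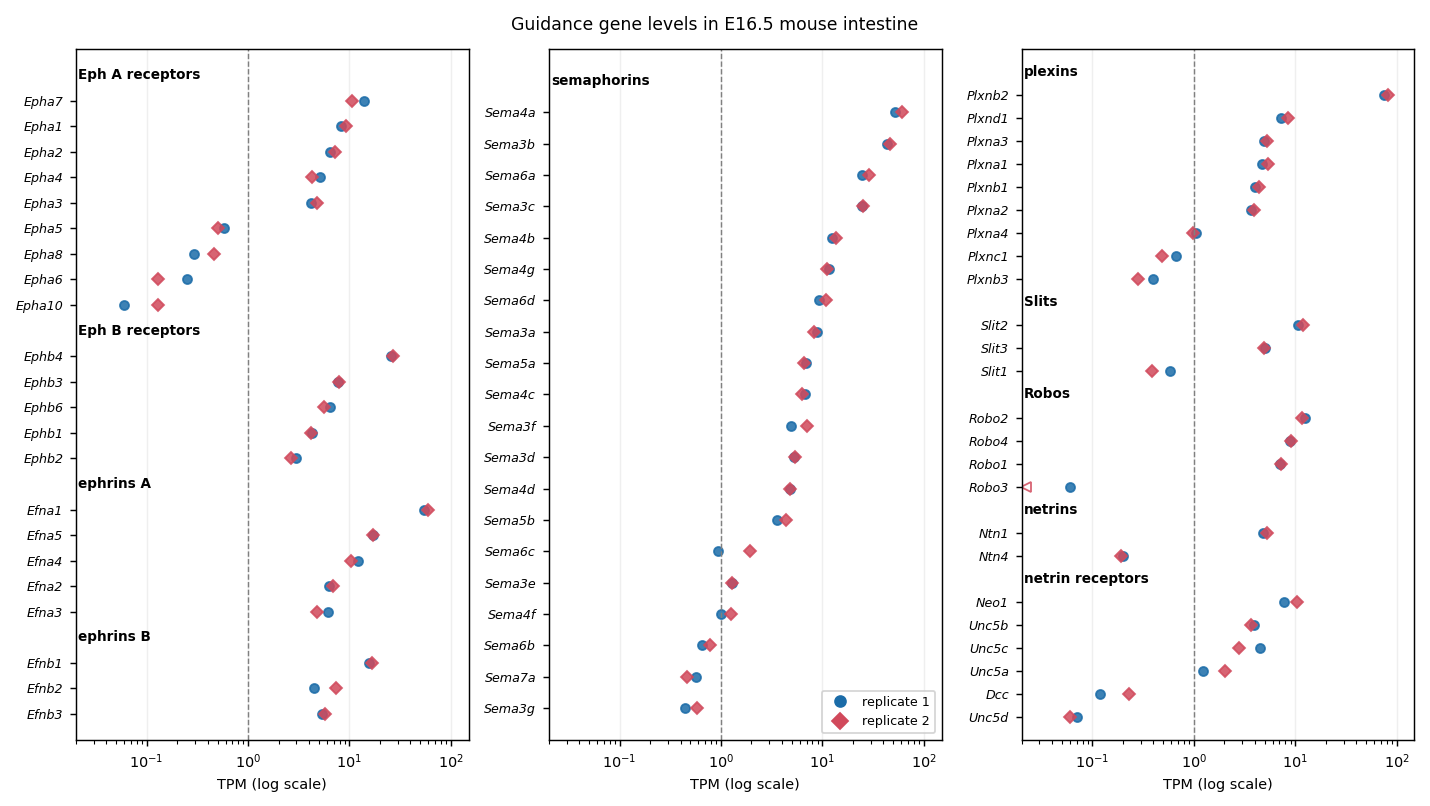
Level of every guidance gene in TPM (log scale) in replicate 1 (blue circles) and replicate 2 (red diamonds), grouped by family, with a dashed line at 1 TPM. Plxnb2, Efna1, Sema4a and Sema3b lie highest, and 16 members fall below the line in at least 1 library. The open triangle at the left edge marks Robo3, which had 0 counts in replicate 2.

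Among the ligands of Eph receptors, all 8 ephrin genes were detected. The 5 ephrin-A genes, which encode ligands anchored to the membrane by a lipid, summed to 97.0 ± 2.17 TPM. Efna1 (ENSMUSG00000027954.5; mm10 chromosome 3, 89271733 to 89281142, minus strand) had 53.79 and 59.37 TPM in replicates 1 and 2, and was the second most abundant member. It alone held 58.3% of the ephrin-A sum. Efna5 had 17.25 and 17.19 TPM, which put Efna1 3.27-fold above it, with a log2 ratio of 1.71 ± 0.10. Efna4 had 12.03 and 10.31 TPM. Efna2 had 6.29 and 6.89 TPM, and Efna3 had 6.13 and 4.80 TPM. Efna2 was above Efna3 in both libraries, by less than the summed SD of the pair.

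The 3 ephrin-B genes encode transmembrane ligands and summed to 27.6 ± 2.93 TPM. Efnb1, whose product positions cells along the crypt axis of mouse intestine, had 15.63 and 16.51 TPM in replicates 1 and 2. Efnb2, known as a marker of arterial endothelium, had 4.43 and 7.32 TPM, so its 2 libraries lay far apart. Efnb1 was higher in both libraries, by 2.79-fold on average (log2 1.48 ± 0.45). Efnb3 had 5.42 and 5.80 TPM.

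As a group the receptor genes summed to less than the ligand genes. The 14 Eph receptor genes summed to 85.2 ± 0.940 TPM and the 8 ephrin genes to 124.6 ± 5.11 TPM, and 10 of the 14 receptors were detected. This order holds per length only. With counts in place of TPM, Eph A and Eph B receptors held 6.79% and 8.51% of the members' sum, and ephrins A and B held 8.28% and 4.05%. Among A-type receptors 5 of 9 were detected, with a sum of 38.3 ± 1.14 TPM. Epha7 had the highest level over all transcripts, with 13.88 and 10.64 TPM in replicates 1 and 2. Over coding transcripts alone it had 7.78 and 6.22 TPM, below Epha1 in both libraries. The level of Epha1 may include reads shared with an overlapping gene, described further on. Epha1 had 8.35 and 9.35 TPM, Epha2 had 6.46 and 7.22 TPM, Epha4 had 5.11 and 4.23 TPM and Epha3 had 4.13 and 4.84 TPM. The level of Epha7 was above that of Epha4 by 2.58-fold in the mean, in both libraries. The 4 receptors that were not detected included 3 that are best known from the nervous system. Epha5 had 0.58 and 0.50 TPM, Epha8 had 0.29 and 0.46 TPM and Epha6 had 0.25 and 0.13 TPM. Epha10, which encodes a receptor without kinase activity, had 0.06 and 0.13 TPM, from 7 and 9 counts.

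All 5 B-type receptors were detected and summed to 46.9 ± 0.198 TPM. Ephb4, the partner of ephrin-B2 and a marker of venous endothelium, led with 25.55 and 26.67 TPM in replicates 1 and 2 and held 55.7% of the sum. Ephb3 had 7.64 and 7.87 TPM, Ephb6, another receptor without kinase activity, had 6.36 and 5.62 TPM, Ephb1 had 4.26 and 4.20 TPM, and Ephb2 had 2.94 and 2.67 TPM. The 5 genes kept the same order in both libraries. Ephb4 was 9.03-fold above Ephb2 (log2 3.17 ± 0.14).

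Set against a ligand, the receptor gene was lower in 3 of the 4 pairs examined. The log2 ratio of Epha2 to Efna1, one of its main ligands, was -3.03 ± 0.01, so Efna1 was 8.17-fold higher. Efnb1 exceeded Ephb2 by 5.57-fold and Ephb3 by 2.06-fold, and each ratio had the same sign in both libraries and exceeded 3 SD. The vascular pair ran the other way. Ephb4 was 4.52-fold above Efnb2, with log2 ratios of 2.50 in replicate 1 and 1.85 in replicate 2. These ratios compare whole tissue and do not say which cells carry ligand and receptor.

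Ephb1 is expressed here as alternative coding transcripts. Ephb1-201 contains an exon of 123 bases, equal to 41 codons, that Ephb1-202 skips. It lies at mm10 chr9:101984082-101984204 on the minus strand and is annotated as coding. These transcripts have 4667 and 4101 bases, so they also differ elsewhere, and the split between them rests on other sequence too. The exon is shown because it is a coding stretch held by one and skipped by the other, from the GENCODE M21 transcript, with the exon in capitals and 15 bases of each flanking exon in lower case.
Ephb1 exon: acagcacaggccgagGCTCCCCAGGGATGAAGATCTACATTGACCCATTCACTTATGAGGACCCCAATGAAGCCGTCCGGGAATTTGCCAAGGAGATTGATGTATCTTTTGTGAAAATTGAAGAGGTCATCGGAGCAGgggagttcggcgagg
Of the TPM of transcripts that span both flanks, 88.6% in replicate 1 and 60.7% in replicate 2 came from the one with this exon (74.6 ± 19.7%). The form with the exon was therefore the larger one in both libraries, while its share was unsettled, from 491 and 318 estimated counts with the exon and 55.3 and 180.1 without it.

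Semaphorins were the largest share of the guidance transcripts. The 20 genes summed to 235 ± 15.7 TPM, or 37.9% of all members, and 16 were detected. The secreted class 3 and the transmembrane class 4 carried similar sums, 91.3 ± 4.39 TPM over 7 genes and 93.4 ± 6.41 TPM over 6 genes. In class 3, Sema3b (mm10 chromosome 9, 107597674 to 107609229, minus strand) led with 43.03 and 46.77 TPM in replicates 1 and 2. Sema3c followed with 24.55 and 25.20 TPM and Sema3a, the repellent ligand of neuropilin 1, with 8.79 and 8.22 TPM. Sema3c was 2.90-fold above Sema3a in the mean (log2 1.54 ± 0.09), and by log2 0.87 over coding transcripts alone, where Sema3c averaged 15.7 TPM. Sema3d had 5.25 and 5.35 TPM. Sema3f, the ligand of neuropilin 2, had 4.90 and 7.05 TPM and was not apart from Sema3a, at log2 -0.52 ± 0.43. The lowest detected class 3 gene was Sema3e, with 1.28 TPM in each library. Sema3g was not detected, with 0.44 and 0.58 TPM.

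All 6 class 4 genes were detected, over a wide range. Sema4a (mm10 chromosome 3, 88435959 to 88461182, minus strand) had 52.03 and 60.48 TPM in replicates 1 and 2, close to Efna1 and within its spread. Sema4b had 12.58 and 13.79 TPM, Sema4g had 11.69 and 11.25 TPM and Sema4c had 6.72 and 6.34 TPM. Sema4d, the ligand of plexin B1, had 4.81 and 4.80 TPM. Sema4f was lowest with 1.01 and 1.25 TPM, just inside the limit of detection used. The class 4 sum rested on Sema4a, which held 60.2% of it.

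The other semaphorin classes were smaller. Class 5, with thrombospondin repeats, gave Sema5a at 6.91 and 6.63 TPM and Sema5b at 3.59 and 4.39 TPM in replicates 1 and 2. The transmembrane class 6 summed to 39.0 ± 4.62 TPM, of which Sema6a held 68.5% with 24.80 and 28.58 TPM. Sema6d had 9.33 and 10.95 TPM. Sema6b, with 0.65 and 0.78 TPM, was not detected, and Sema6c missed the limit in 1 library, with 0.94 and 1.95 TPM. Sema7a, the lipid-anchored ligand of plexin C1, was also below it, with 0.57 and 0.46 TPM.

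Sema6d transcripts differ by a cassette of 2 coding exons that together hold 225 bases, equal to 75 codons. The cassette lies within mm10 chr2:124660705-124662371 on the plus strand. It is present in Sema6d-206, the most abundant transcript of the gene, and absent from 3 other transcripts that span the same flanks. It is printed from GENCODE M21 because it separates the leading Sema6d form from the others, with the joined exons in capitals and 15 flanking bases on each side in lower case.
Sema6d cassette: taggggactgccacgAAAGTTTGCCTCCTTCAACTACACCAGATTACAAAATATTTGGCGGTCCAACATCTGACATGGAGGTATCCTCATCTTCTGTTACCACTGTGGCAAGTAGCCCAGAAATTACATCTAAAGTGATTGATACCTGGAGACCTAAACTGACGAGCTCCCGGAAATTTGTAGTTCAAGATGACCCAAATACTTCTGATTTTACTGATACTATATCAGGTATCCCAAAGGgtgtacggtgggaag
The form with the cassette held 73.6% of the TPM of these transcripts in replicate 1 and 54.4% in replicate 2 (64.0 ± 13.6%). As with the Ephb1 exon, it led in both libraries with a share that moved between them.

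Plexin levels were set by 1 gene. The 9 plexins summed to 107 ± 6.57 TPM, of which Plxnb2 (ENSMUSG00000036606.12; mm10 chromosome 15, 89155549 to 89180788, minus strand) held 73.8%. It had 75.19 and 82.01 TPM in replicates 1 and 2, the highest level of any guidance gene, although this value depends on a short transcript described further on. Plxnd1, the receptor of Sema3e, followed with 7.29 and 8.50 TPM. The A-type plexins, which pair with neuropilins, were close together. Plxna1 had 4.66 and 5.34 TPM, Plxna3 had 4.95 and 5.28 TPM and Plxna2 had 3.69 and 3.90 TPM. Plxna1 was 1.31-fold above Plxna2, and Plxna1 and Plxna3 were not apart (log2 -0.03 ± 0.07). Plxnb1 had 4.04 and 4.43 TPM. Of the 3 plexins not detected, Plxna4 lay at the limit with 1.04 and 0.98 TPM, from 390 and 359 counts, whereas Plxnc1 had 0.66 and 0.49 TPM and Plxnb3 had 0.40 and 0.28 TPM.

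Among semaphorins and the plexins they bind, some pairs were apart and others were not. Plxnd1 was 5.78-fold above its ligand gene Sema3e, with a log2 ratio of Sema3e to Plxnd1 of -2.53 ± 0.15. Sema6d was 2.01-fold above Plxna1. Sema4d and Plxnb1 were not apart by the 3 SD limit (log2 0.18 ± 0.09), nor were Sema7a and Plxnc1 (log2 -0.13 ± 0.08), both of which were low. Both calls depend on the processing. Sema4d was above Plxnb1 with transcripts of at least 1000 bases (log2 0.43 ± 0.05), with coding transcripts (0.30) and with posterior means (0.33), and below it in counts (-0.53). Sema7a was below Plxnc1 with posterior means (log2 -0.56) and in counts (-1.20). The co-receptor genes Nrp1, with 25.3 and 25.9 TPM, and Nrp2, with 20.2 and 19.6 TPM, were each above every A-type plexin. The ratio of Nrp1 to Nrp2 was 1.29.

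Of the Slit ligands, 2 of 3 genes were detected, with a family sum of 16.9 ± 0.658 TPM. Slit2 (mm10 chromosome 5, 47983138 to 48307733, plus strand) had 10.76 and 11.96 TPM in replicates 1 and 2. Slit3 had 5.05 and 4.97 TPM, so Slit2 was 2.24-fold above it (log2 1.16 ± 0.12). Over coding transcripts alone the ratio was log2 0.48, and the pair was no longer apart. Slit1, best known from the nervous system, was below the limit with 0.58 and 0.39 TPM, from 72.0 and 59 counts.

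The 4 Robo genes summed to 28.4 ± 0.368 TPM. Robo2 had 12.45 and 11.69 TPM in replicates 1 and 2, Robo4, which is known from endothelium, had 8.98 and 9.14 TPM, and Robo1 had 7.13 and 7.27 TPM. These 3 genes did not overlap between the libraries, and Robo2 was 1.67-fold and Robo4 1.25-fold above Robo1. The place of Robo2 above Robo4 rests on short and noncoding transcripts. It averaged 8.40 TPM, against 9.06 TPM for Robo4, over transcripts of at least 1000 bases, and 7.95 TPM, against 8.97 TPM, over coding transcripts. Robo3, which acts in commissural axons of the nervous system, had 3 counts in replicate 1 and 0 in replicate 2, where up to 3 counts would be allowed by a count of 0. Slit2 was 1.57-fold above Robo1 over all transcripts, but this order depends on the processing. The log2 ratio of Slit2 to Robo1 was -0.68 over coding transcripts and -0.13 in counts, and the pair was apart in neither. Over transcripts of at least 1000 bases it was 0.53 ± 0.19, also not apart. Robo1 was 1.43-fold above Slit3 (log2 ratio of Slit3 to Robo1 -0.51 ± 0.04, and -1.16 over coding transcripts).

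Of the 2 netrin genes 1 was detected, and their sum was 5.22 ± 0.354 TPM. Ntn1, the secreted netrin of axon guidance, had 4.77 and 5.28 TPM in replicates 1 and 2. Ntn4, a netrin that binds laminins, had 0.20 and 0.19 TPM from 21 and 19 counts. With 0.1 TPM added to each gene, Ntn1 was 17.4-fold above it (log2 4.12 ± 0.14). At so low a level the added amount sets the size of the ratio, which was log2 4.62 with 0.01 TPM added and 2.33 with 1 TPM added. The receptor Neo1, a relative of Dcc that also binds repulsive guidance molecules, had 7.80 and 10.49 TPM. It was 1.79-fold above Ntn1. Dcc (mm10 chromosome 18, 71253634 to 72351069, minus strand), the attractive netrin receptor, had 0.12 and 0.23 TPM from 18 and 34 counts. Neo1 was 34.0-fold above Dcc (log2 5.09 ± 0.11, with 0.1 TPM added to each gene), and Unc5b was 14.5-fold above it (log2 3.86 ± 0.48). With 0.01 TPM added these log2 ratios were 5.68 and 4.43, and with 1 TPM added they were 3.10 and 2.03, so the direction was the same and the size was not.

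Of the repulsive Unc5 receptors, 3 of 4 genes were detected. Unc5b, known from endothelium, had 3.93 and 3.69 TPM in replicates 1 and 2, Unc5c had 4.45 and 2.82 TPM, and Unc5a had 1.22 and 2.04 TPM. Unc5b and Unc5c changed places between the libraries and were not apart (log2 0.10 ± 0.39). Unc5d was not detected, with 0.07 and 0.06 TPM from 19 and 15 counts. The 6 netrin receptors together came to 18.5 ± 1.23 TPM. Of the other netrin genes, Ntng1, a membrane-anchored netrin-G, had 2.55 and 1.91 TPM, while Ntn5 had 0.29 and 0.45 TPM and Ntng2 had 0.03 and 0.06 TPM. Ntn3 had no value in the tables.

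**Figure D2:**
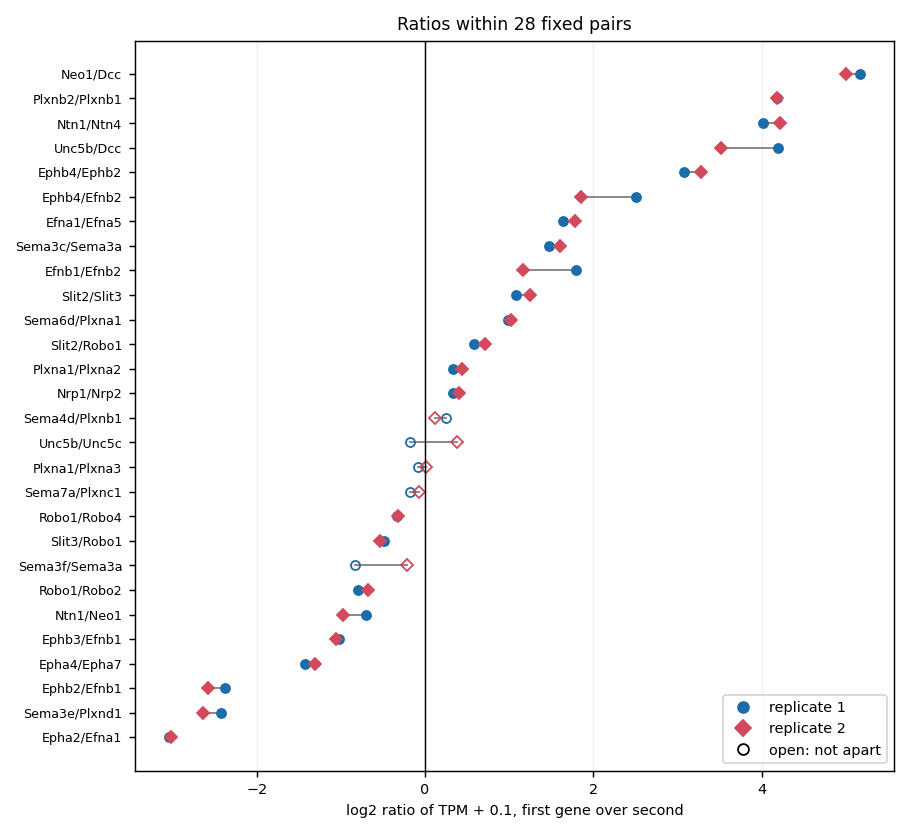
Log2 ratio of TPM plus 0.1, first gene over second, for 28 pairs of ligands, receptors and relatives in replicate 1 (blue circles) and replicate 2 (red diamonds), with open symbols for pairs not apart. Of the 28 pairs 23 were apart, from Neo1 over Dcc at the right to Epha2 over Efna1 at the left, and 5 were not.

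Being apart means a log2 ratio of equal sign in replicates 1 and 2 whose mean exceeds 3 SD. This held for 23 of 28 pairs, with the first-named gene higher in 14 and the second in 9. The 5 pairs not apart were Sema3f and Sema3a, Sema4d and Plxnb1, Plxna1 and Plxna3, Sema7a and Plxnc1, and Unc5b and Unc5c. With 2 libraries the SD is itself poorly known, and no p-value stands behind the call.

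Most genes that pass guidance signals on were present. Of 19 co-receptors and binding partners 15 were detected. Itgb1, the integrin beta 1 subunit that also binds semaphorin 7A, led with 187 and 201 TPM in replicates 1 and 2. Flrt3, a membrane protein that binds Unc5 and Robo receptors, had 26.0 and 25.6 TPM, and Nrp1 came next. The lowest were Dscam and Draxin, each with 0.07 and 0.05 TPM. Of 36 cytoplasmic effectors 34 were detected. Sdcbp, whose product syntenin binds the tail of ephrin-B proteins, had 399 and 422 TPM, the adaptor gene Grb10 had 200 and 199 TPM, and Dpysl2, which encodes a mediator of semaphorin 3A signals, had 108 and 99.7 TPM. The lowest was Rnd1, a small GTPase gene of plexin signalling, with 0.82 and 0.96 TPM. These shares of 15 in 19 and 34 in 36 stand beside the 62% of all protein-coding genes detected, and the lists hold many broadly used signalling genes.

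Several members lie side by side in the genome and differ in level. On chromosome 3, Efna1, Efna3 and Efna4 are neighbours on the minus strand, with 32.8 kb between Efna1 and Efna3 and 10.4 kb between Efna3 and Efna4. The middle gene, Efna3, was lowest, 10.4-fold below Efna1 and 2.04-fold below Efna4 in mean TPM. On chromosome 9, Sema3b and Sema3f are 72.3 kb apart on the same strand, and Sema3b was 7.51-fold higher. Also on chromosome 9, Robo4 (37401897 to 37415115, plus strand) and Robo3 (37415669 to 37433246, minus strand) end 553 bases apart, with mean levels of 9.06 and 0.03 TPM. On chromosome 4, Ephb2 was 7.48-fold above Epha8, 93.4 kb away.

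Between the libraries most guidance genes with enough counts lay within 1.25-fold, and 1 passed the limit set on fold and intervals. The difference was taken as the log2 ratio of replicate 2 to replicate 1 of TPM plus 0.1, relative to the median protein-coding gene, for the 53 members with a mean of at least 100 counts. Of these, 44 lay within 1.25-fold, a share that was not computed for all protein-coding genes. The median size of the difference was 0.14 on the log2 scale, against 0.11 for all 12885 protein-coding genes at that depth. More members were higher in replicate 2 than lower, 36 against 17, where 50.1% of those genes were higher, and the median member lay at 0.09 against 0.00. No member passed 2-fold with deposited intervals apart, which 0.838% of those genes did.

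Efnb2 (ENSMUSG00000001300.11; mm10 chromosome 8, 8617434 to 8661242, minus strand) was the member that passed 1.5-fold with deposited intervals apart. It had 883 counts in replicate 2 and 551 in replicate 1, for levels of 7.32 and 4.43 TPM. The log2 ratio of replicate 2 to replicate 1 was 0.73, both from TPM and from counts. The same limits, 1.5-fold with intervals apart, were passed by 1.75% of protein-coding genes at that depth higher in replicate 2. A further 0.621% passed them lower, for 2.37% in either direction, so 1 of 53 members is near the background share. With 1 library on each side there is no test. The endothelial marker list had a median ratio of 1.07 between the same libraries and a summed level of 246 TPM in replicate 2 and 242 TPM in replicate 1. Ephb4, the venous partner, differed by log2 0.08. The pancreatic list was 1.43-fold higher in replicate 2 and the liver list 2.28-fold lower, and their part in the Efnb2 difference was not tested.

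The Efnb2 promoter is shown because Efnb2 is the member that moved. Its RefSeq start (GRCm38.p6) coincides with the GENCODE start at position 8661242 of chromosome 8. The 250 bases before it, chr8:8661243-8661492 on the minus strand, are printed from 5′ to 3′, with matches to 3 common promoter motifs in capitals. Both strands were searched, and the matches do not overlap.
Efnb2 promoter: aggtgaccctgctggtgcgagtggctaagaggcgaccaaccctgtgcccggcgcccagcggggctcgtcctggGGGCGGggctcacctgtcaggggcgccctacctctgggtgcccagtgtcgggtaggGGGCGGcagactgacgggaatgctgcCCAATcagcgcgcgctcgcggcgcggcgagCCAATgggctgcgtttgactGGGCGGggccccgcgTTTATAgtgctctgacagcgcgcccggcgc
It holds 3 matches to the GC box, searched as GGGCGG. It holds 2 matches to the CCAAT box and 1 to the TATA box, searched as TATAAA, the last on the opposite strand. Of 32841 promoter windows of the same length, 32.7% hold the GC box, 33.9% the CCAAT box and 12.4% the TATA box. The window is 72% G and C with 27 CpG, where the median window is 52.4% with 6. These matches describe letters and do not show a site in use.

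Among members with a mean of at least 100 counts, 3 of the 5 farthest apart between the libraries moved more in TPM than in counts. Sema6c had the largest ratio, log2 0.99 in TPM, but 0.37 in counts, from 124 in replicate 2 and 99 in replicate 1. Unc5a had log2 0.71 in TPM and 0.20 in counts, from 149 in replicate 2 and 134 in replicate 1. Unc5c had log2 -0.62 in TPM and -0.08 in counts, from 518 in replicate 2 and 567 in replicate 1. In each, a transcript shorter than 1000 bases was counted in a few reads, mainly in 1 library. Unc5c-206, of 357 bases, had 0 counts in replicate 2 and 12.1 in replicate 1, and its share of the gene's TPM was 0% and 35.9%. Unc5a-204, of 593 bases, had 10.5 counts in replicate 2 and 0 in replicate 1, for 36.3% and 0%. The short Sema6c transcripts held 14.1 and 1.69 counts, for 49.7% of TPM in replicate 2 and 8.89% in replicate 1. Sema3f was the remaining one, with log2 0.53 in TPM and 0.67 in counts, from 578 in replicate 2 and 377 in replicate 1.

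**Figure D3:**
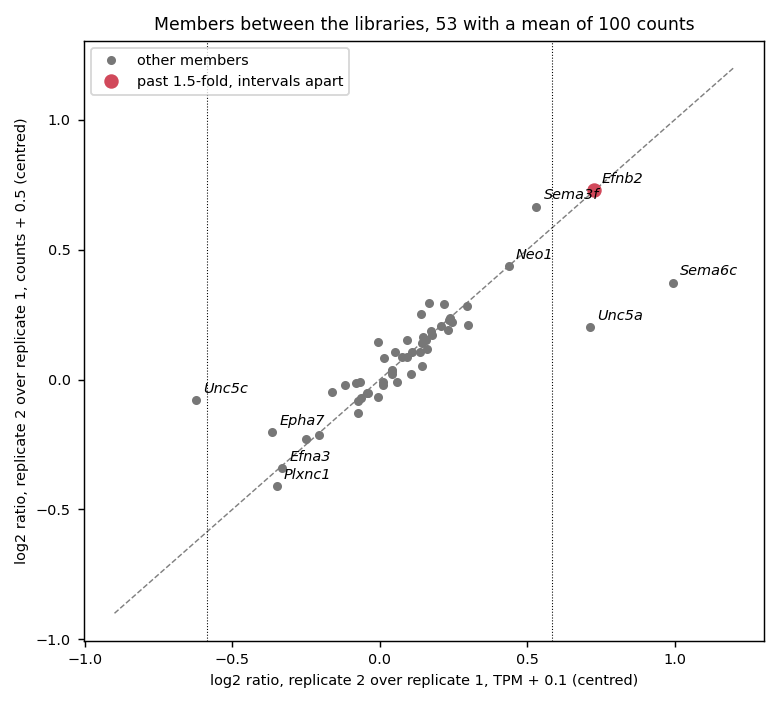
Log2 ratio of replicate 2 to replicate 1 for 53 members with a mean of at least 100 counts, from TPM plus 0.1 (horizontal) and from counts plus 0.5 (vertical), each centred on the median protein-coding gene. The dashed line marks equal ratios and the dotted lines 1.5-fold. Efnb2 lies past 1.5-fold on both axes, while Sema6c, Unc5a and Unc5c lie past it in TPM only and Sema3f in counts only.

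Short transcripts also carried a large part of the Plxnb2 level. Its transcript Plxnb2-205, a processed transcript of 841 bases with no annotated protein, had 765 and 811 counts in replicates 1 and 2. These were 11.1% and 10.2% of the gene's counts, yet 46.6% of its TPM in each library. The coding transcript Plxnb2-202, of 6377 bases, held 86.9% and 87.4% of the counts and 43.1% and 47.1% of the TPM. Taking transcripts of at least 1000 bases alone, Plxnb2 averaged 35.8 TPM and ranked 4 among the members, and Efna1, with 56.6 TPM, ranked 1. Plxnb2 was then 10.1-fold above Plxnb1, against 18.2-fold with all transcripts.

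A share of at least 25% of TPM in transcripts under 1000 bases was found for 4 of the 37 members with a mean of at least 5 TPM, against 22% of all protein-coding genes at that level. Beside Plxnb2 they were Plxna3, Robo2 and Ephb6. With transcripts of at least 1000 bases only, Plxna3 averaged 2.66 TPM in place of 5.12 TPM, Robo2 averaged 8.40 TPM in place of 12.1 TPM and Ephb6 averaged 4.34 TPM in place of 5.99 TPM. Robo2 was then no longer apart from Robo1, with a ratio of Robo1 to Robo2 of log2 -0.22 ± 0.10. Plxna1, level with Plxna3 over all transcripts, was then above it by log2 0.89 ± 0.15.

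**Figure D4:**
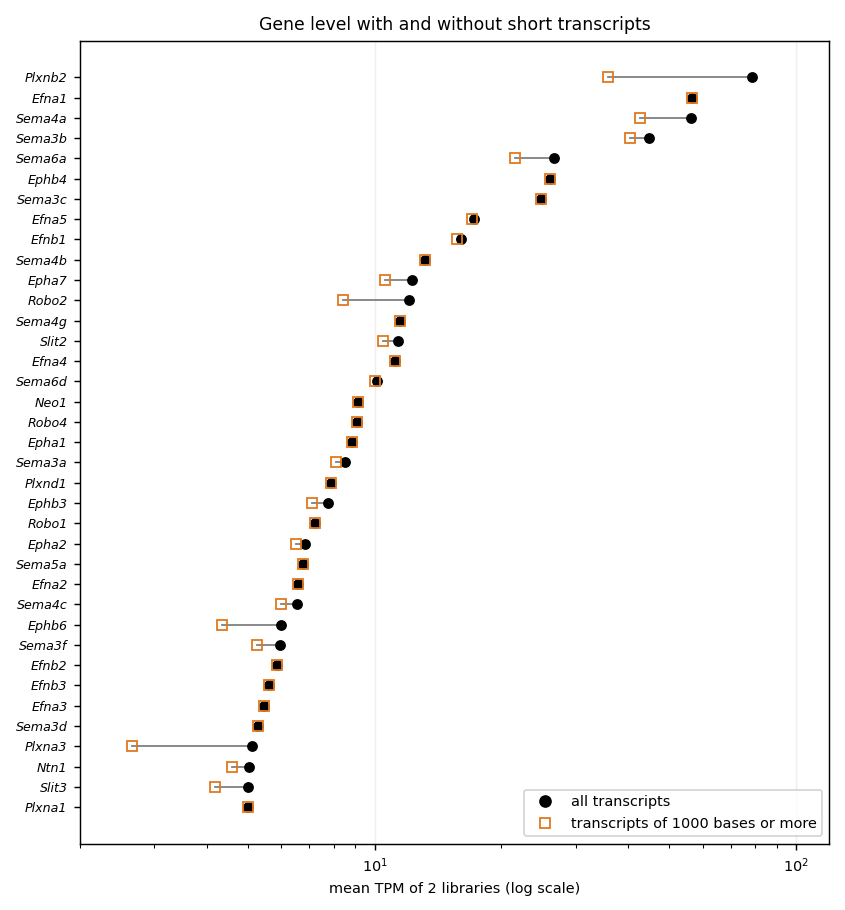
Mean TPM of 2 libraries (log scale) for the 37 members with at least 5 TPM, from all transcripts (black circles) and from transcripts of 1000 bases or more (orange squares). Plxnb2, Robo2, Ephb6 and Plxna3 have the longest connecting lines, and Efna1 is unmoved.

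The transcript with the largest share of a gene was the same in both libraries for 25 of 29 members with a mean of at least 5 TPM and at least 2 annotated transcripts. It differed for 4, which is 13.8%, against 6.22% of all protein-coding genes under the same limits. In Sema4g the leading coding transcripts were nearly level, with Sema4g-201 at 42.8% and 36.5% and Sema4g-203 at 37.1% and 41.4% in replicates 1 and 2. In Slit2, Slit2-202, the coding transcript of 6854 bases, held 35.5% and 40.1%, and Slit2-207, annotated with a retained intron, held 35.2% and 41.3%. In Epha7, the noncoding Epha7-208 held 29.9% and 28.6% and the coding Epha7-201 held 28.0% and 40.6%. Plxnb2 was the remaining one, through the short transcript above. Of the 5 most abundant members the other 4 kept their leading transcript. Efna1-201 held 98.8% in both libraries, Sema4a-201 held 38.1% and 35.2%, Sema3b-202 held 41.0% and 47.2%, and Sema6a-202 held 31.7% and 34.5%.

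For genes with retained-intron or other noncoding forms, the gene level is not the level of coding RNA. Slit2 averaged 11.4 TPM over all transcripts and 4.50 TPM over those annotated as coding, and Robo2 averaged 12.1 and 7.95 TPM. Robo2-209, with a retained intron, was the largest Robo2 transcript in both libraries, at 30.3% and 29.7% in replicates 1 and 2. Over coding transcripts alone Slit2 was below Robo1 (log2 -0.68), but the pair was not apart. Over transcripts of at least 1000 bases the pair was not apart either (log2 0.53 ± 0.19).

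Epha4 changed its leading transcript between the libraries and was singled out after its values were seen. Epha4-205, annotated for nonsense-mediated decay, had 681 and 198 counts in replicates 1 and 2, and the coding Epha4-201 had 0.84 and 360 counts. Their sequences are nearly the same. Epha4-201 has 6328 bases and contains all 6315 bases of Epha4-205, or 99.8% shared, with 9 more at the 5′ end (taagcattt) and 4 more at the 3′ end (cctg). Over the shared bases, reads of one cannot be told from reads of the other. The counts of the gene as a whole, 770 and 634, do not depend on that split. In Sema6c, also named after its values were seen, the leading transcript was Sema6c-212, annotated for decay, in replicate 1 and the coding Sema6c-201 in replicate 2. At a limit of 1 TPM, which takes in both of these genes, the leading transcript differed for 6 of 41 members (14.6%), against 8% of protein-coding genes.

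**Figure D5:**
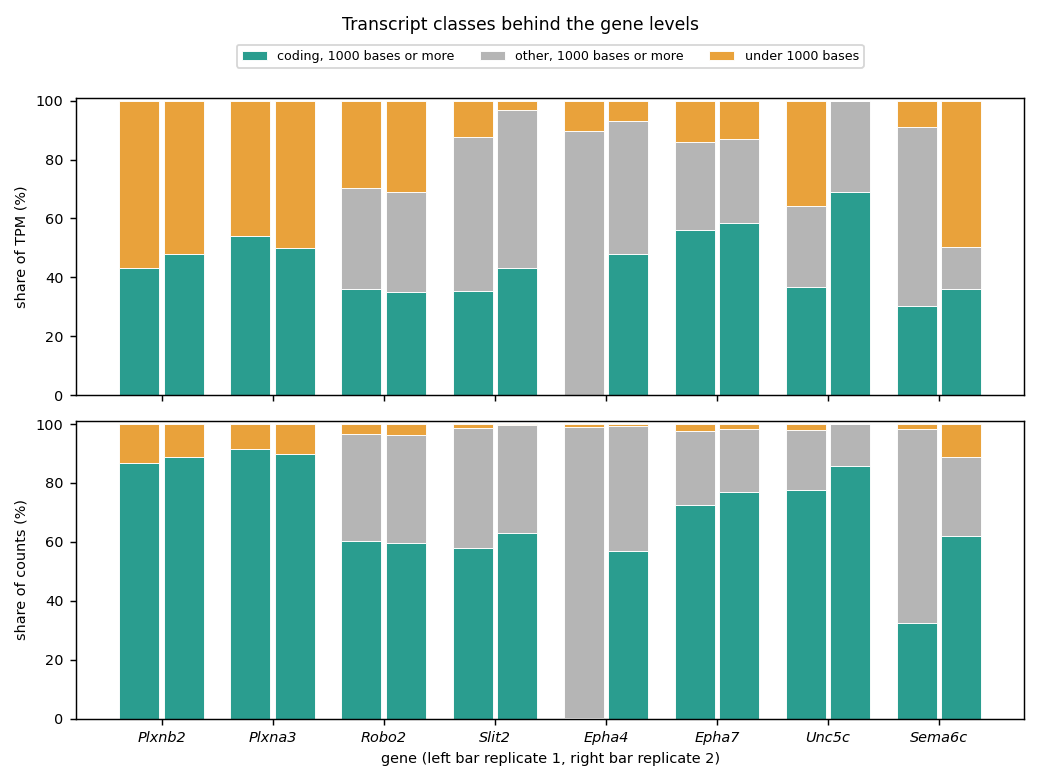
Share of a gene's TPM (top) and of its counts (bottom), in percent, held by coding transcripts of 1000 bases or more (green), other transcripts of 1000 bases or more (grey) and transcripts under 1000 bases (orange), for 8 members, with replicate 1 as the left bar and replicate 2 as the right bar. The orange share of Plxnb2 is 56.9% and 52.2% of TPM but 13.1% and 11.2% of counts, and the green share of Epha4 is near 0 in replicate 1 and 47.9% of TPM in replicate 2.

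The labels do not state whether strand was kept, so reads of genes that overlap on opposite strands may not be separable. Of the members, 24 overlap such a gene, and in 3 of them the partner had more than 0.1 times the member's counts. The matching shares of all protein-coding genes were not computed, so these counts serve only as a caution on single members. Epha1, with 779 and 848 counts in replicates 1 and 2, overlaps Zyx, a gene of cell adhesion with 5033 and 4758 counts. Unc5a, with 134 and 149 counts, overlaps the hexokinase gene Hk3, with 102 and 117 counts. Ntn4, with 21 and 19 counts, overlaps the antisense gene Gm15915, with 41 and 42 counts. Expected counts of Epha1 (779.31 and 847.7) and Zyx (5032.69 and 4758.3) were fractional, as arises when reads are divided between genes. In each library the fractional parts of this pair make up a whole number. The counts of Unc5a, Hk3, Ntn4 and Gm15915 were whole numbers and gave no sign of such division. Fractional values on both sides also occurred below the 0.1 limit, for example in Ephb1 (559.95 and 515.97) and Gm26846 (41.05 and 27.03). How far the overlap alters these levels was not tested.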

How the data were processed

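Total RNA-seq of 2 libraries of embryonic mouse intestine was used. Per the text deposited beside the tables, reads were assigned to GENCODE M4 on mm10; the aligner and quantifier are not given in the sources here. Expected counts, as deposited, estimate the reads of a gene or transcript, with shared reads divided. The deposited TPM values divide these by effective length and scale each library to the same total, spike-ins included. As deposited, percent values state how a gene's TPM divides among its transcripts. The deposited signal bounds are intervals of TPM around a posterior mean, of unstated level, and can miss the TPM itself. Spike-ins held 1.81% and 1.74% of counts, and features naming no gene 0.000147% and 0.000157%, which stayed out.

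Of 43346 gene identifiers, 42462 (98.0%) matched GENCODE M21, which gave symbols, types and coordinates. Members were taken by symbol pattern, and 56 of 66 had a RefSeq promoter entry. Ratios added 0.1 TPM, and those between libraries were centred on the median protein-coding gene with a mean of at least 1 TPM (-0.01 removed). Python 3.11.15 with numpy 2.4.6, pandas 2.3.3 and matplotlib 3.10.9 was used, with edgeR 4.0.16 and DESeq2 1.42.0 in R 4.3.3 for scaling factors of expected counts rounded to whole numbers. The rule for the library difference was tried on simulated counts with a fixed ratio of TPM to counts per gene. It therefore did not cover shifts between transcripts or intervals that miss the TPM. Alternatives were other limits, pseudocounts, scalings, posterior means, counts without length, each library left out and, chosen after seeing the data, long or coding transcripts only. Members, pairs and lists were chosen with earlier results of these data known. All members and pairs are named, with the 3 highest and the lowest of each partner list. Also named are the 5 members farthest apart between libraries at a mean of at least 100 counts. Members whose leading transcript differs and the 5 most abundant are named for their transcripts. Protein sequences were planned but are not used here. Replicates are separate pools of embryos, so their spread mixes biology and technique.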

Additional observations from a re-analysis of the deposited data

How the results depend on the processing

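The count of detected members, 50, ranged from 47 with a limit of 2 TPM to 64 with a limit of at least 10 counts, and was 51 with either library left out. The members' share of protein-coding TPM, 0.0715%, was 0.0732% from posterior means, 0.0692% to 0.0739% with 1 library left out, 0.102% from transcripts of at least 1000 bases, 0.0646% from coding transcripts and 0.167% from counts without length, which favour long genes by construction. Of the 28 pairs, 22 to 26 were apart under the alternatives. With coding transcripts only, Slit2 to Slit3 (0.48 on the log2 scale), Robo1 to Robo2 (-0.14), Epha4 to Epha7 (-2.53) and Slit2 to Robo1 (-0.68) were no longer apart. The Epha4 to Epha7 ratio grew in size, from -1.37 over all transcripts. Its spread grew too, as coding Epha4 had 0.52 and 2.31 TPM in replicates 1 and 2. With counts in place of TPM, Efnb1 to Efnb2 (1.05), Efna1 to Efna5 (0.22), Robo1 to Robo2 (0.29) and Slit2 to Robo1 (-0.13) were no longer apart. With transcripts of at least 1000 bases the call was lost for Robo1 to Robo2 (-0.22) and Slit2 to Robo1 (0.53). Unc5b to Unc5c became apart with long transcripts (0.41), coding transcripts (1.05) and counts (0.23). Sema4d to Plxnb1 did so with long transcripts (0.43), coding transcripts (0.30), posterior means (0.33) and counts (-0.53). Plxna1 to Plxna3 did so with posterior means (-0.24), long transcripts (0.89), coding transcripts (0.89) and counts (1.15). Sema7a to Plxnc1 became apart with posterior means (-0.56) and counts (-1.20). The pseudocount changed no pair's call, but moved the ratios over Dcc and Ntn4 by over 1.5 times. Ratios that turned sign with counts in place of TPM were Sema4d to Plxnb1 (log2 -0.53), Plxna1 to Plxna3 (1.15), Robo1 to Robo2 (0.29), Robo1 to Robo4 (0.70) and Slit2 to Robo1 (-0.13). Plxna1 to Plxna3 also turned with long transcripts (0.89) and with coding transcripts (0.89), and Slit2 to Robo1 with coding transcripts (-0.68). Members past the limit between libraries numbered 1, 0 at 2-fold and 2 (Efnb2 and Sema3f) with TMM scaling, with DESeq2 size factors and with long transcripts. The leading transcript agreed in 25 members and in 27 with posterior means. No paired analysis was possible because no second group exists. The count of pairs apart and the library difference need both libraries, so neither can be given with 1 left out.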
